A study of Mus musculus with 8 samples.

Results

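The genes of cholesterol and fatty acid synthesis were followed across 4 groups of mouse embryonic stem (ES) cell arrays. The set was a list of 30 genes named by symbol, and 29 of them were found among the 18193 genes with a probe set of a single gene symbol. They comprised 17 enzymes of the sterol branch, 6 genes of the sterol-sensing control machinery (SREBP control) and 6 enzymes of the fatty acid branch. No probe set with a single symbol was listed for Acat2, the cytosolic thiolase at the head of the sterol branch, so it is not represented. Each gene was read from its brightest probe set, by the mean of all 8 arrays, and all 29 genes passed the filter on dim genes. That filter did not choose among the members.

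Each group held 2 arrays labelled as biological replicates, and no label calls them separate cultures. The p-values therefore measure the spread between these arrays, which may be technical. The wild-type group is an ES cell line whose name the labels do not give. The exon 2 mutant has the genotype Δexon2/+ and was derived by gene targeting in the R1 line, that is, it carries a deletion of exon 2 of 1 Gtf2i allele. The Hprt knockout is labelled HPRT -/-, with no parental line named. The trap line, labelled HPRT -/-:GTF2I +/-, came from a gene trap in AB2.2 ES cells, so it lacks Hprt as the Hprt knockout does and carries 1 disrupted Gtf2i allele besides. Gtf2i encodes TFII-I, a signal-responsive transcription factor of the Williams-Beuren interval, and Hprt encodes a purine salvage enzyme. All lines grew on a monolayer of feeder cells in Knockout Serum Replacement medium with LIF, a cytokine that maintains mouse ES cells. Each group stands for a single line, so a difference between groups is one between lines, and clone and genotype cannot be told apart. The Hprt knockout is the control that shares the Hprt genotype of the trap line, and the wild-type is the control for the exon 2 mutant. The parental line of neither control is labelled.

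Cells make cholesterol from acetyl-CoA through mevalonate, farnesyl diphosphate, squalene and lanosterol, and fatty acids from the same acetyl-CoA through malonyl-CoA. The sterol regulatory element binding proteins (SREBPs) drive transcription of both branches. When membrane sterol is low, the escort protein SCAP carries SREBPs to the Golgi for cleavage, and when sterol is high, INSIG proteins hold the complex in the endoplasmic reticulum. SREBP2 acts mainly on sterol genes and SREBP1c mainly on fatty acid genes.

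Promoters of 4 members are shown, each as the 250 bases before the transcription start in RefSeq (GRCm38.p6), because the expression values below turn on these genes or because the window holds the sterol regulatory element searched for. Of the 30 listed genes, 24 had an entry, and 5 of these had several starts, of which the table's first was used. The motifs were the sterol regulatory element TCACNCCAC, the NF-Y box CCAAT, the Sp1 box GGGCGG and the E-box CACGTG, each on both strands. Capitals mark TCACNCCAC and CCAAT on either strand, so a CCAAT box on the opposite strand reads ATTGG. Hmgcs1, which encodes cytosolic HMG-CoA synthase, lies on the plus strand and its window is chr13:119690101-119690350. Hsd17b7, a sterol ketoreductase gene, lies on the minus strand and its window is chr1:169969206-169969455. Dhcr7, encoding the reductase that makes cholesterol from its dehydro precursor, has a plus-strand window at chr7:143822917-143823166. Elovl6, an elongase gene of the fatty acid branch, has a plus-strand window at chr3:129532136-129532385.
Hmgcs1: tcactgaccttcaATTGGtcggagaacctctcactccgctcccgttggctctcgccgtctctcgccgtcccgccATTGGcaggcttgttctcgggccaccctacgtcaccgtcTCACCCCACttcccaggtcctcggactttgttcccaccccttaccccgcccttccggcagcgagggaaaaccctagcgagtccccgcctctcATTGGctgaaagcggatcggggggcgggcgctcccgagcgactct
Hsd17b7: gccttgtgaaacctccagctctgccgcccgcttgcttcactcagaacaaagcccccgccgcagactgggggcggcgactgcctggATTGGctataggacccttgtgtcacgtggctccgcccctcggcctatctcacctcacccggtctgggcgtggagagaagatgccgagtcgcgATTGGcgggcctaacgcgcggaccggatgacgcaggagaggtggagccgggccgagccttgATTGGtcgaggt
Dhcr7: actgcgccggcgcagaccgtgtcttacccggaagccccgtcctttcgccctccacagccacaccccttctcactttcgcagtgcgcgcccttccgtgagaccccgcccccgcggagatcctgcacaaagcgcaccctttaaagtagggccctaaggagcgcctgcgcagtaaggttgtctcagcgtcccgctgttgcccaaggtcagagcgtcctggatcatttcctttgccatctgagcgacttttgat
Elovl6: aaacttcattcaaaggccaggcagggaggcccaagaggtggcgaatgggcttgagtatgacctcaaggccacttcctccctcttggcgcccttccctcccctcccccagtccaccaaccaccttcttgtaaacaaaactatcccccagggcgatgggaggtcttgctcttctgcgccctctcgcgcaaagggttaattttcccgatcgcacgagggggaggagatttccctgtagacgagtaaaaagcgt

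The Hmgcs1 window held TCACNCCAC with its first base at -137 from the start, and 3 CCAAT boxes. The Hsd17b7 window held 3 CCAAT boxes and no TCACNCCAC. Neither motif was present in the windows printed for Dhcr7 and Elovl6. Over all members with an entry, TCACNCCAC was found in 1 of 24 windows (4.17%) against 280 of 27025 windows of all genes (1.04%). CCAAT was found in 18 of 24 (75%) against 34.5% of all genes, with 13 of 15 sterol enzymes and 1 of 4 fatty acid enzymes. GGGCGG was found in 17 of 24 (70.8%) against 32.9% of all genes, with 14 of the 15 sterol enzymes, and CACGTG in 3 of 24 (12.5%) against 6.05%. These matches describe the letters of the window only.

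The arrays gave 1 log2 intensity for each of 45101 probe sets, and 13819 genes were tested. Correlations between the 2 arrays of a group were 0.997 to 0.998 over the tested genes, those of Hprt knockout arrays with other groups 0.866 to 0.920, and those of all other pairs of groups 0.967 to 0.979. Hprt itself read 12.09 and 12.08 on the wild-type arrays, 12.25 and 12.25 in the exon 2 mutant, 10.05 and 10.02 in the Hprt knockout and 10.76 and 10.72 in the trap line, lower in both HPRT -/- lines. Gtf2i read 10.10 and 10.14 in wild-type, 10.45 and 10.51 in the exon 2 mutant, 10.92 and 10.89 in the Hprt knockout and 10.11 and 10.07 in the trap line. Its values were thus below those of the Hprt knockout in the trap line, but not lower in the exon 2 mutant than in wild-type, and the sources used here do not say whether its probe set lies in the deleted or trapped part. The ES cell marker Pou5f1 read 12.74 to 13.46 on all 8 arrays. The summed linear intensity of 17 feeder fibroblast markers on the array (of 18 listed), all of them tested, was 121470 to 122350 in wild-type, 98182 to 99508 in the exon 2 mutant, 103020 to 103900 in the trap line and 7858.5 to 7987.2 in the Hprt knockout. The Hprt knockout arrays thus carry little of the feeder signal that the other 6 arrays carry, and the part of feeder cells in any difference from that group was not tested. In bulk RNA, fewer cells of a type and less RNA per cell cannot be told apart.

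All 29 synthesis genes read higher on both trap line arrays than on both wild-type arrays. Of these, 27 rose (adjusted p below 0.05 in limma, with Benjamini-Hochberg adjustment over the 13819 genes) and 0 fell (29 and 0 at an unadjusted p under 0.05). The background was 26.5% of all tested genes called higher and 14.6% called lower, and 44% of all tested genes were higher without overlap. All 17 sterol enzymes rose, by 0.23 (Pmvk) to 0.99 (Idi1) on the log2 scale, and all 6 fatty acid enzymes rose, by 0.18 (Acly) to 1.22 (Scd1). The median difference of the 29 genes was 0.66, against 0.05 over all tested genes. Of the control genes, Srebf2, Insig1, Scap and Stard4 rose, while Srebf1 (0.21 ± 0.08, adjusted p = 0.0677) and Insig2 (0.27 ± 0.09, adjusted p = 0.0521) did not pass the test. The errors given here and below are standard errors of the limma fit.

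Several measures moved with this comparison. The stem cell marker list rose in 9 of 12 genes (median 0.26) and fell in 0, and the feeder fibroblast list rose in 3 and fell in 7 of 17 genes (median -0.13). The count of risen synthesis genes was 29 with the fit restricted to the trap line and wild-type arrays, 25 after cyclic loess scaling between arrays, and 23 without 1 wild-type array or 1 trap line array (replicate 1 of either group). Without wild-type replicate 1 the calls of Pmvk, Ebp, Acaca and Acly were lost, without trap line replicate 1 those of Pmvk, Ebp, Fasn and Acly, without wild-type replicate 2 those of Fasn and Acly and without trap line replicate 2 those of Acaca and Acly.

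**Figure D1:**
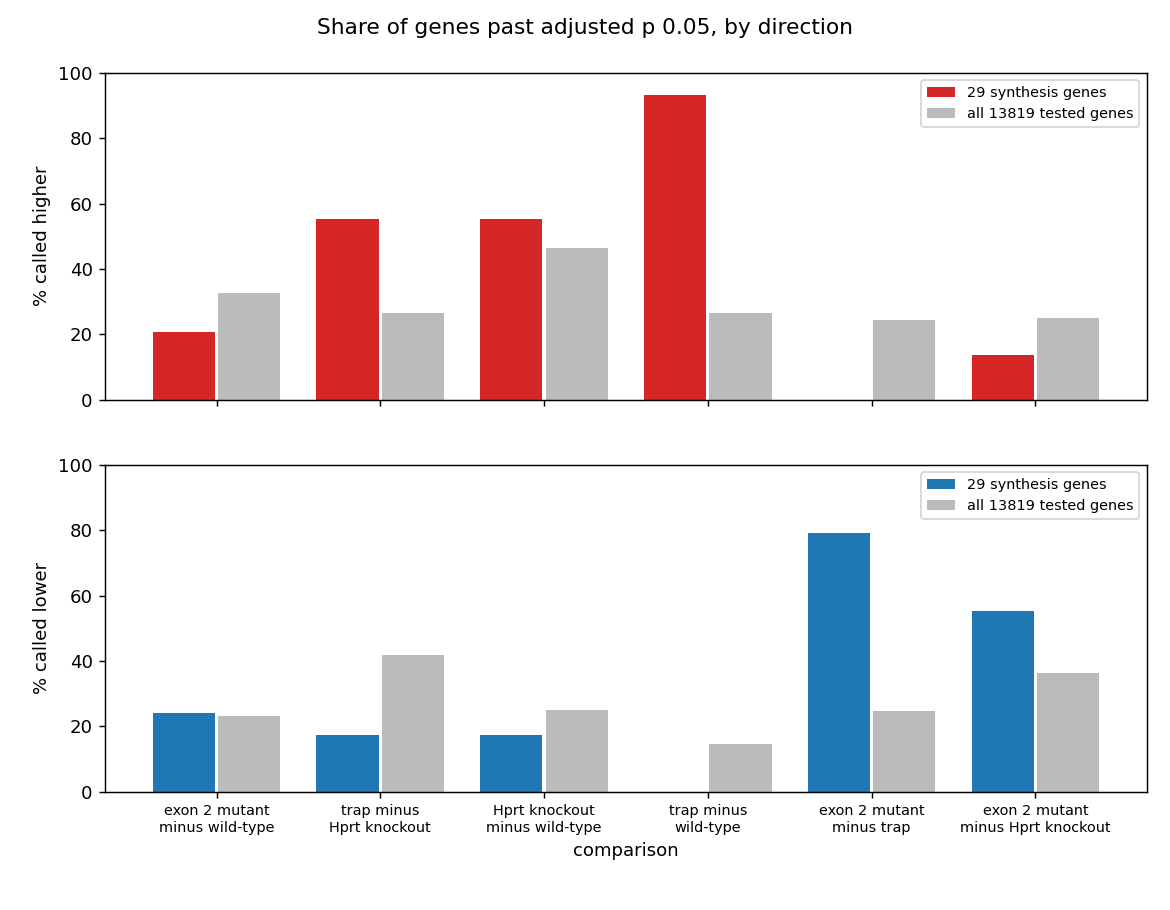
Percentage of the 29 synthesis genes (coloured bars) and of all 13819 tested genes (grey bars) called higher (upper panel) and lower (lower panel) at an adjusted p below 0.05 in 6 comparisons. In the trap line against wild-type, 27 of 29 synthesis genes were called higher, against 26.5% of all genes.

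In the Hprt knockout, 16 of 29 synthesis genes rose and 5 fell relative to wild-type. The background was 46.4% of all tested genes called higher and 25.1% called lower, so the share of members was near that of all genes. The 16 that rose included Elovl6 (2.57-fold), Dhcr7 (2.24-fold) and Pmvk (2.21-fold). The 5 that fell were Hsd17b7, Ebp and Sc5d, enzymes of the last steps to cholesterol, and the desaturases Scd1 and Scd2. The median difference was 0.26 against 0.16 over all tested genes. Cyclic loess gave 10 genes higher and 10 lower, with the median over all tested genes at 0.00 in place of 0.16, and over all tested genes 4709 higher and 4729 lower in place of 6409 and 3467. Under it Acly, Fasn, Fdft1, Fdps, Sqle and Stard4 were no longer called higher, and Cyp51 (-0.21, adjusted p = 0.0104) and Nsdhl (-0.25, adjusted p = 0.00259) were called lower. The 17 feeder fibroblast markers all fell in this comparison (median -4.71), the stem cell list rose in 9 and fell in 2 of 12 genes (median 0.42), and the primitive endoderm list rose in 4 and fell in 1 of 7 (median 0.31).

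The comparisons of the Hprt knockout and of the trap line with wild-type share the wild-type arrays. Side by side, the differences from wild-type, first of the Hprt knockout and then of the trap line, were -1.42 and 0.68 for Hsd17b7, and 1.36 and 1.09 for Elovl6.

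In the trap line against the Hprt knockout, 16 of 29 genes rose and 5 fell. The background was 26.6% of all tested genes called higher and 41.8% called lower. The median difference of the 29 genes was 0.26 where that of all tested genes was -0.13. Hsd17b7 (4.29-fold), Scd1 (3.68-fold), Scd2 (2.80-fold) and Sc5d (2.11-fold) showed the largest rises. The 5 that fell were Pmvk, Acaca, Dhcr7, Srebf2 and Elovl6. Cyclic loess moved the median of all tested genes from -0.13 to 0.01 and gave 21 members higher and 3 lower, without Elovl6 and Srebf2 among the fallen. Over all tested genes it gave 4690 higher and 4244 lower in place of 3675 and 5774. All 17 feeder fibroblast markers rose in this comparison (median 4.07), while the stem cell list rose in 4 and fell in 6 of 12 genes (median -0.17) and the primitive endoderm list rose in 3 and fell in 4 of 7 (median -0.26).

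In the exon 2 mutant, 6 synthesis genes rose and 7 fell relative to wild-type. The background was 32.5% of all tested genes called higher and 23.1% called lower. The genes that fell were Hmgcs1, Hsd17b7, Msmo1, Sc5d, Fasn, Idi1 and Scap, and those that rose were Elovl6, Dhcr7, Tm7sf2, Stard4, Srebf2 and Pmvk. The median difference was 0.06 against 0.03 over all tested genes. After cyclic loess 4 genes were higher and 12 lower, and over all tested genes 3676 were higher and 4019 lower in place of 4485 and 3189. Pmvk and Srebf2 were among the calls lost then, and both were also lost without wild-type replicate 1, Pmvk also without exon 2 mutant replicate 2. The feeder fibroblast list fell in 15 of 17 genes (median -0.38) and rose in 0, the primitive endoderm list fell in 5 of 7 (median -0.73) and rose in 0, and the stem cell list rose in 9 of 12 and fell in 1 (median 0.28). Their part in the members' differences was not tested. The exon 2 mutant arrays carry other label fields than the other 6 arrays, and a separate handling of them, if there was one, cannot be told apart from the genotype.

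**Figure D2:**
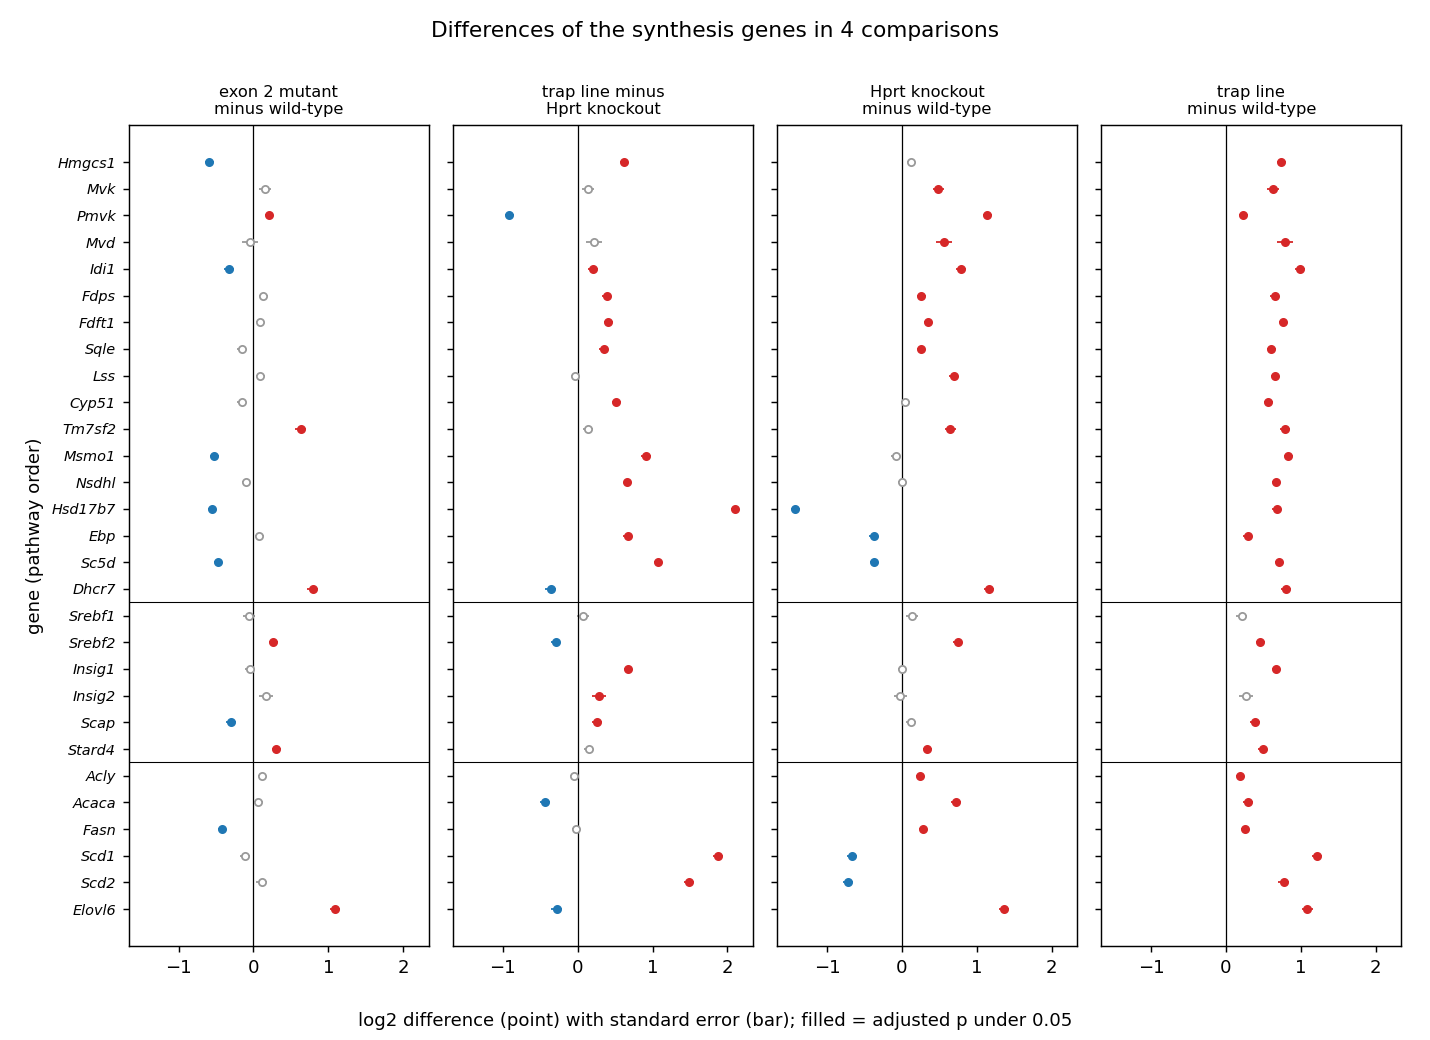
Log2 difference (points, with standard error bars) of each of the 29 synthesis genes in 4 comparisons; filled red points were called higher, filled blue points lower, and open grey points did not pass an adjusted p of 0.05. All points lie to the right of 0 in the trap line minus wild-type panel, and Hsd17b7 has the largest difference in the trap line minus Hprt knockout panel (2.10).

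Set against their own controls, the 2 Gtf2i mutant lines differed, among the members as over all tested genes. Of the 29 genes, 0 rose and 0 fell in both lines in limma (at an unadjusted p under 0.05, Stard4 alone rose in both and 0 fell in both), where 3.18% of all tested genes rose and 3.65% fell in both. Hmgcs1, Hsd17b7, Idi1, Msmo1, Sc5d and Scap fell in the exon 2 mutant and rose in the trap line, and Dhcr7, Elovl6, Pmvk and Srebf2 rose in the exon 2 mutant and fell in the trap line. Of all tested genes, 14.5% followed the first of these patterns and 22.9% the second, against 6 and 4 of the 29 members. The member counts of shared and of opposite direction were thus near the shares of all tested genes. Calls of 5 of these 10 members were lost under alternatives. Among the calls against the Hprt knockout, that of Scap was lost with the mean of probe sets and without Hprt knockout replicate 2 or trap line replicate 1. That of Elovl6 was lost in the same 3 alternatives and after cyclic loess. The call of Idi1 was lost with the mean of probe sets, with only the compared arrays, and without Hprt knockout replicate 2 or either trap line array, and that of Srebf2 after cyclic loess. Among the exon 2 mutant calls, that of Scap was lost with the mean of probe sets, that of Srebf2 with this mean, after cyclic loess and without wild-type replicate 1, and that of Pmvk after cyclic loess and without wild-type replicate 1 or exon 2 mutant replicate 2. The difference of the effects, that is, exon 2 mutant minus wild-type minus the difference between trap line and Hprt knockout, was called for 22 members (background 69.7%), 6 positive and 16 negative. The background by sign was 42.6% of all tested genes called positive and 27% called negative. The largest negative difference of effects was that of Hsd17b7 (-2.65 ± 0.08, adjusted p = 3.98e-07) and the largest positive one that of Elovl6 (1.37 ± 0.10, adjusted p = 2.14e-05). The 17 feeder fibroblast markers all had a negative difference of effects (median -4.79).

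Directly between the 2 mutant lines, 23 members were lower in the exon 2 mutant than in the trap line and 0 were higher (23 and 0 at an unadjusted p under 0.05). The background was 24.7% of all tested genes called lower and 24.5% called higher. On 26 members both exon 2 mutant arrays lay below both trap line arrays, against 37.7% of all tested genes. The lower members were 14 of 17 sterol enzymes, 5 of 6 control genes and 4 of 6 fatty acid enzymes, with a median over the 29 of -0.66 against -0.01 over all tested genes. The largest differences were those of Msmo1 (-1.36 ± 0.06), Hmgcs1 (-1.33 ± 0.06) and Scd1 (-1.33 ± 0.07). Pmvk, Tm7sf2, Dhcr7, Insig2, Acly and Elovl6 did not pass the test. The feeder fibroblast list was lower in 9 and higher in 4 of 17 genes (median -0.16), the primitive endoderm list lower in 5 and higher in 0 of 7 (median -0.49), and the macrophage list lower in 3 and higher in 0 of 4 (median -0.33). Their part in the lower members was not tested. The calls of Srebf1, Srebf2, Stard4, Acaca and Ebp were each lost without 1 array of these groups, which left 18 to 22 lower members over all single arrays left out. Lines and Hprt genotype differ together between these groups and cannot be told apart. Between the exon 2 mutant and the Hprt knockout, 4 members were higher (Hsd17b7, Ebp, Scd1 and Scd2) and 16 lower in the exon 2 mutant, with 24.9% of all tested genes called higher and 36.3% called lower, and all 17 feeder fibroblast markers were higher (median 4.39).

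**Figure D3:**
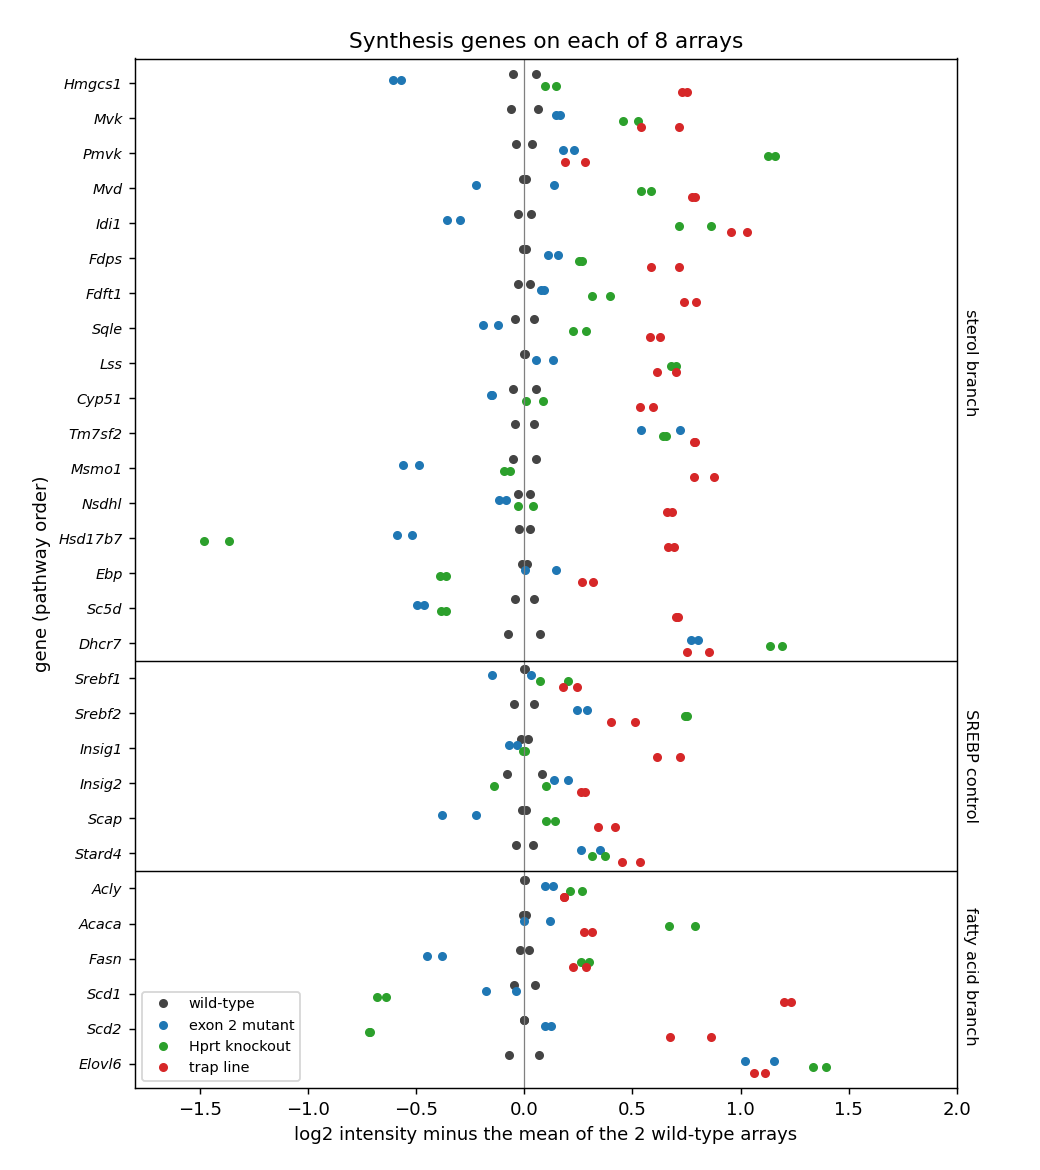
Log2 intensity of each of the 29 synthesis genes on each of the 8 arrays, minus the mean of the 2 wild-type arrays of that gene; colours mark the 4 groups and horizontal lines separate the sterol, control and fatty acid genes. The trap line points lie to the right of the wild-type points in every row, and the Hprt knockout points lie to the left for Hsd17b7, Scd1 and Scd2, among others.

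By group mean, the trap line was the highest group for 21 of the 29 genes and the Hprt knockout for 8. The lowest group was wild-type for 12, the exon 2 mutant for 12 and the Hprt knockout for 5. These counts by mean have no share over all tested genes beside them, so they do not show whether the members stand apart. Called against each of the other 3 groups, 15 members were highest in the trap line, where 7.01% of all tested genes were. By the same rule, 5 members were highest in the Hprt knockout (26.5% of all tested genes), 6 lowest in wild-type (13.6%), 5 lowest in the exon 2 mutant (4.41%) and 4 lowest in the Hprt knockout (17.3%). All these orders rest on log2 intensities of a gene across groups, and levels of different genes are not compared.

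The first steps, from acetyl-CoA to farnesyl diphosphate, were read from 6 enzymes. Hmgcs1 read 11.46 and 11.56 in wild-type, 10.90 and 10.94 in the exon 2 mutant, 11.66 and 11.61 in the Hprt knockout and 12.26 and 12.24 in the trap line. Its order was exon 2 mutant, then wild-type and Hprt knockout, then trap line, and the middle pair did not differ past the threshold (0.12 ± 0.06, adjusted p = 0.0922). It fell by 0.59 ± 0.06 in the exon 2 mutant (adjusted p = 0.000175) and rose by 0.62 ± 0.06 in the trap line over the Hprt knockout (adjusted p = 6.26e-05). Pmvk, the phosphomevalonate kinase gene, had 8.07 and 8.15 in wild-type, 8.29 and 8.34 in the exon 2 mutant, 9.24 and 9.27 in the Hprt knockout and 8.39 and 8.30 in the trap line. Only the Hprt knockout arrays stood well above the others, and the trap line was -0.91 ± 0.06 against it (adjusted p = 1.04e-05). The exon 2 mutant and trap line arrays of Pmvk overlapped. Mvd, which encodes the decarboxylase that makes isopentenyl diphosphate, gave 7.86 and 7.85 in wild-type, 7.63 and 7.99 in the exon 2 mutant, 8.39 and 8.44 in the Hprt knockout and 8.64 and 8.63 in the trap line. Its exon 2 mutant arrays lay on both sides of the wild-type arrays, while both HPRT -/- lines were higher. Mvd rose by 0.56 ± 0.11 in the Hprt knockout and by 0.78 ± 0.11 in the trap line (adjusted p = 0.00246 and 0.00146).

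Idi1, encoding isopentenyl diphosphate isomerase, measured 9.64 and 9.70 in wild-type, 9.31 and 9.37 in the exon 2 mutant, 10.53 and 10.38 in the Hprt knockout and 10.62 and 10.70 in the trap line. Its groups did not overlap, and the trap line exceeded wild-type 1.99-fold and the Hprt knockout exceeded it 1.73-fold. It fell by 0.33 ± 0.07 in the exon 2 mutant (adjusted p = 0.00538). The difference between the trap line and the Hprt knockout was 0.21 ± 0.07 (adjusted p = 0.0292), a call that was lost in 5 alternatives, with the mean of probe sets, with the fit of these 4 arrays alone, and without Hprt knockout replicate 2 or either trap line array. Mvk, the mevalonate kinase gene, and Fdps, which encodes farnesyl diphosphate synthase, complete the segment. Both rose in the Hprt knockout (0.49 and 0.26) and in the trap line (0.63 and 0.65) relative to wild-type, and neither was called in the exon 2 mutant. In all, 6 of 6 enzymes of this segment rose in the trap line over wild-type, 5 of 6 rose in the Hprt knockout, and 1 rose and 2 fell in the exon 2 mutant.

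From squalene to lanosterol, the 3 enzymes were all lower in wild-type than in either HPRT -/- line. Fdft1, the squalene synthase gene, read 10.39 and 10.45 in wild-type, 10.50 and 10.51 in the exon 2 mutant, 10.82 and 10.73 in the Hprt knockout and 11.22 and 11.16 in the trap line. Sqle, encoding squalene epoxidase, an oxygen-requiring and rate-controlling step, read 9.70 and 9.79 in wild-type, 9.55 and 9.62 in the exon 2 mutant, 10.03 and 9.97 in the Hprt knockout and 10.32 and 10.37 in the trap line. Lss, which encodes the cyclase that forms lanosterol, read 8.22 and 8.23 in wild-type, 8.35 and 8.28 in the exon 2 mutant, 8.90 and 8.92 in the Hprt knockout and 8.83 and 8.92 in the trap line. All 3 passed the test in both of these comparisons with wild-type, and none was called in the exon 2 mutant, where Sqle came nearest to the threshold (-0.16 ± 0.06, adjusted p = 0.0514). The trap line exceeded the Hprt knockout for Fdft1 (0.41 ± 0.05, adjusted p = 0.000419) and Sqle (0.35 ± 0.06, adjusted p = 0.0013). For Lss the arrays of these 2 groups overlapped on the brightest probe set (-0.03 ± 0.06, adjusted p = 0.622). Its other probe sets separated them in opposite directions. The second read 7.37 and 7.42 in the trap line and 7.04 and 6.88 in the Hprt knockout. The third read 5.79 and 5.76 in the trap line and 6.21 and 6.29 in the Hprt knockout.

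The 8 enzymes from lanosterol to cholesterol were divided. Against wild-type all 8 rose in the trap line (0.29 to 0.83), whereas 2 rose and 3 fell in the Hprt knockout and 2 rose and 3 fell in the exon 2 mutant. Hsd17b7, the ketoreductase gene of the complex that removes methyl groups from sterols, read 9.27 and 9.22 in wild-type, 8.66 and 8.73 in the exon 2 mutant, 7.77 and 7.88 in the Hprt knockout and 9.94 and 9.91 in the trap line. Its groups were fully separated in the order Hprt knockout, exon 2 mutant, wild-type, trap line. The trap line exceeded the Hprt knockout by 2.10 ± 0.06 (adjusted p = 2.01e-07), and the Hprt knockout was -1.42 ± 0.06 against wild-type (adjusted p = 1.12e-06).

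Msmo1, the methylsterol monooxygenase gene acting in the same demethylation, had 10.12 and 10.22 in wild-type, 9.68 and 9.61 in the exon 2 mutant, 10.08 and 10.10 in the Hprt knockout and 10.96 and 11.05 in the trap line. The exon 2 mutant was lowest, the trap line highest, and the Hprt knockout and wild-type lay between (-0.08 ± 0.06, adjusted p = 0.285). It rose 1.88-fold in the trap line over the Hprt knockout (adjusted p = 1.56e-05) and fell by 0.52 ± 0.06 in the exon 2 mutant (adjusted p = 0.00046). Sc5d, which encodes lathosterol oxidase, gave 9.08 and 9.17 in wild-type, 8.66 and 8.63 in the exon 2 mutant, 8.77 and 8.74 in the Hprt knockout and 9.83 and 9.84 in the trap line. Both the exon 2 mutant and the Hprt knockout were below wild-type for this gene and the trap line was above it. The rise over the Hprt knockout was 1.08 ± 0.05 (adjusted p = 2.81e-06). Ebp, the sterol isomerase gene, measured 9.61 and 9.64 in wild-type, 9.63 and 9.77 in the exon 2 mutant, 9.26 and 9.24 in the Hprt knockout and 9.94 and 9.89 in the trap line. Its lowest values were those of the Hprt knockout (-0.38 ± 0.06 relative to wild-type, adjusted p = 0.00108) and its highest those of the trap line (0.29 ± 0.06, adjusted p = 0.00878), while the exon 2 mutant arrays overlapped with those of wild-type.

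A link of promoter motifs to expression was not tested. Dhcr7, whose window above is that of the first of 3 listed starts, showed another order. Its values were 7.53 and 7.67 in wild-type, 8.37 and 8.40 in the exon 2 mutant, 8.73 and 8.79 in the Hprt knockout and 8.35 and 8.45 in the trap line. Wild-type was lowest and the Hprt knockout highest, with the exon 2 mutant and the trap line overlapping between them (-0.01 ± 0.07, adjusted p = 0.891). It rose by 0.79 ± 0.07 in the exon 2 mutant (adjusted p = 0.000121) and by 1.16 ± 0.07 in the Hprt knockout (adjusted p = 6.07e-06). Tm7sf2, a sterol reductase gene, also had its lowest values in wild-type, with 6.73 and 6.82 in wild-type, 7.32 and 7.50 in the exon 2 mutant, 7.42 and 7.43 in the Hprt knockout and 7.56 and 7.56 in the trap line. It rose by 0.63 ± 0.07 in the exon 2 mutant (adjusted p = 0.000346), and the other 3 groups did not differ from one another past the threshold. Cyp51, the lanosterol demethylase gene, and Nsdhl, a dehydrogenase gene of the demethylation complex, rose in the trap line over wild-type (0.56 and 0.67) and over the Hprt knockout (0.52 and 0.67). Neither was called in the Hprt knockout or in the exon 2 mutant against wild-type.

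**Figure D4:**
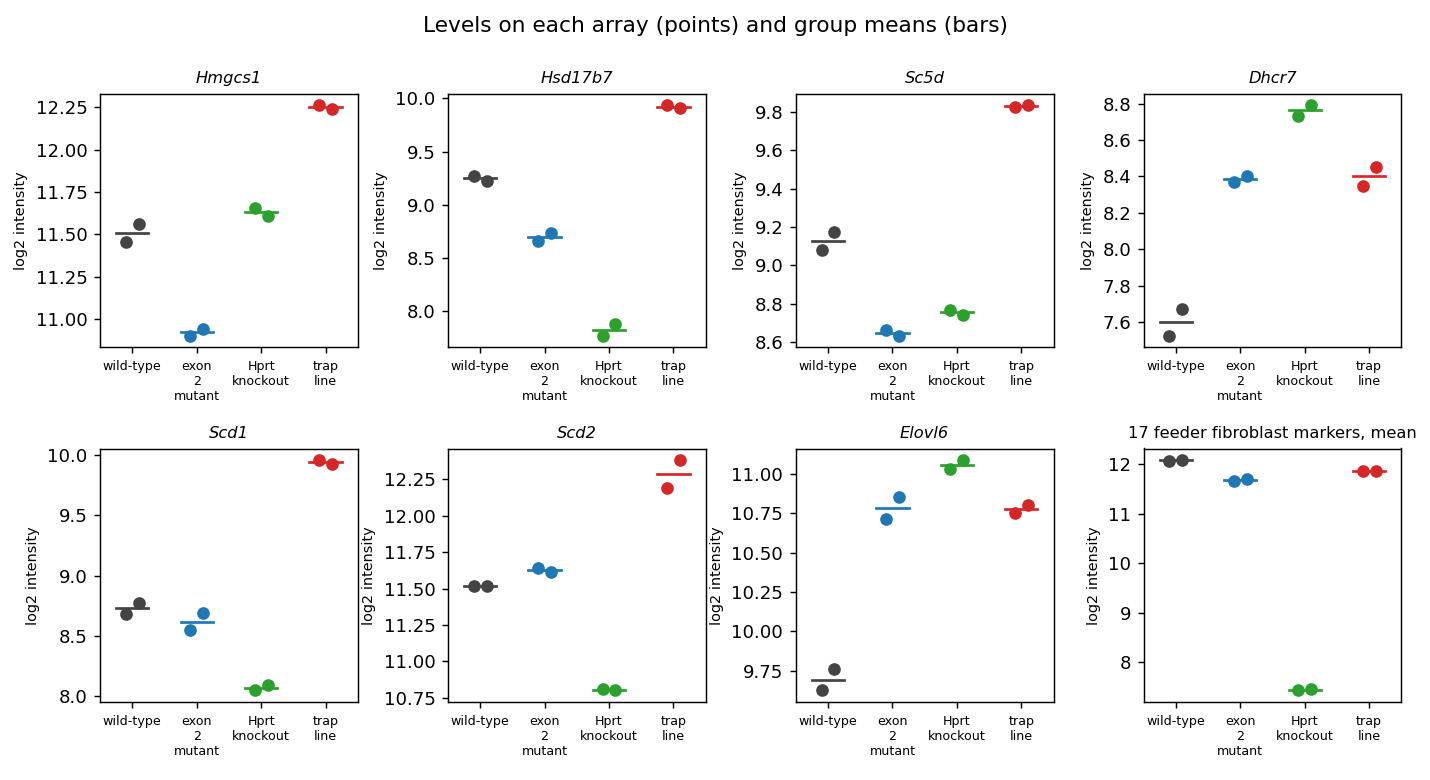
Log2 intensity of 7 synthesis genes, and the mean log2 intensity of 17 feeder fibroblast markers, on each array (points) with the group mean (horizontal bars); each panel has its own vertical range, which does not start at 0. Hsd17b7, Scd1 and Scd2 were lowest in the Hprt knockout, where the feeder mean was 7.44 and 7.46 against 11.66 to 12.08 on the other arrays, while Dhcr7 and Elovl6 were highest there.

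Among the control genes, Srebf2, which encodes SREBP2, read 8.61 and 8.70 in wild-type, 8.90 and 8.94 in the exon 2 mutant, 9.39 and 9.40 in the Hprt knockout and 9.16 and 9.05 in the trap line. On this brightest probe set the 4 groups did not overlap and stood in the ascending order wild-type, exon 2 mutant, trap line, Hprt knockout. Srebf2 rose there by 0.75 ± 0.06 in the Hprt knockout and by 0.46 ± 0.06 in the trap line over wild-type (adjusted p = 2.9e-05 and 0.00129). The trap line was -0.29 ± 0.06 against the Hprt knockout (adjusted p = 0.00413), a call lost after cyclic loess. With the mean of probe sets, the exon 2 mutant was not called against wild-type or the trap line. The second probe set read 8.07 and 7.93 in wild-type and 7.99 and 8.13 in the exon 2 mutant. It read 8.15 and 8.35 in the Hprt knockout and 8.23 and 8.18 in the trap line. There wild-type overlapped the exon 2 mutant, and the trap line overlapped the Hprt knockout. Srebf1, encoding SREBP1 proteins, gave 9.27 and 9.26 in wild-type, 9.11 and 9.29 in the exon 2 mutant, 9.34 and 9.46 in the Hprt knockout and 9.51 and 9.44 in the trap line. Its group means spanned 0.27, the exon 2 mutant arrays lay on both sides of the wild-type arrays, and only the difference between the exon 2 mutant and the trap line passed the test (-0.27 ± 0.08, adjusted p = 0.0244). That call was lost without replicate 1 of the exon 2 mutant or either trap line array.

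Insig1, a sterol-responsive gene for an SREBP-retaining protein, read 9.01 and 9.04 in wild-type, 8.96 and 8.99 in the exon 2 mutant, 9.02 and 9.03 in the Hprt knockout and 9.75 and 9.64 in the trap line. The trap line alone stood apart, by 0.67 ± 0.05 over the Hprt knockout (adjusted p = 3.69e-05) and 0.67 ± 0.05 over wild-type (adjusted p = 0.000168), and no difference between the other 3 groups was called. Insig2, its less sterol-responsive paralog, gave 8.76 and 8.92 in wild-type, 9.04 and 8.98 in the exon 2 mutant, 8.94 and 8.70 in the Hprt knockout and 9.12 and 9.10 in the trap line. On this brightest probe set the 2 Hprt knockout arrays overlapped the wild-type arrays. The rise there in the trap line over the Hprt knockout (0.29 ± 0.09, adjusted p = 0.0258) was lost without replicate 2 of the Hprt knockout or either trap line array. The second probe set read 8.61 and 8.45 in the Hprt knockout, 8.72 and 8.80 in wild-type and 9.01 and 9.09 in the trap line. The third read 7.72 and 7.56, 8.02 and 8.11, and 8.05 and 8.21 in the same order. Neither showed that overlap. Scap, encoding the escort protein, had 9.81 and 9.79 in wild-type, 9.42 and 9.58 in the exon 2 mutant, 9.95 and 9.90 in the Hprt knockout and 10.22 and 10.14 in the trap line. It was lowest in the exon 2 mutant (-0.30 ± 0.07 against wild-type, adjusted p = 0.00739) and highest in the trap line (0.38 ± 0.07, adjusted p = 0.00412), and both calls were lost with the mean of its probe sets. That mean includes a second Scap probe set that read only 5.41 to 5.96 over the 8 arrays, near the filter level (5.35 on average). Stard4, which encodes a sterol transfer protein, measured 8.43 and 8.51 in wild-type, 8.82 and 8.72 in the exon 2 mutant, 8.84 and 8.78 in the Hprt knockout and 8.92 and 8.998 in the trap line. Wild-type was below all other groups, by 0.31 to 0.49. The rise in the exon 2 mutant was lost with the mean of its probe sets.

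The fatty acid branch begins with Acly, encoding ATP-citrate lyase, which makes cytosolic acetyl-CoA, and it read 11.87 and 11.86 in wild-type, 12.00 and 11.96 in the exon 2 mutant, 12.08 and 12.13 in the Hprt knockout and 12.05 and 12.05 in the trap line. Its group means spanned 0.24, and the rise of 0.18 ± 0.05 in the trap line over wild-type (adjusted p = 0.0206) was lost without any 1 array of either group and after cyclic loess. These Acly values are those of its brightest probe set. The second Acly probe set read 11.45 and 11.48 in wild-type, 11.77 and 11.85 in the exon 2 mutant and 12.01 and 11.97 in the trap line. The third read 9.295 and 9.41, 9.60 and 9.73, and 9.94 and 9.94 in the same order. Both showed a wider gap from wild-type than the brightest. Acaca, the acetyl-CoA carboxylase gene that makes malonyl-CoA, gave 8.80 and 8.81 in wild-type, 8.81 and 8.93 in the exon 2 mutant, 9.48 and 9.59 in the Hprt knockout and 9.08 and 9.12 in the trap line. It was highest in the Hprt knockout, by 0.73 ± 0.06 over wild-type (adjusted p = 4.55e-05), and the exon 2 mutant arrays overlapped those of wild-type. Fasn, encoding fatty acid synthase, had 9.76 and 9.72 in wild-type, 9.36 and 9.29 in the exon 2 mutant, 10.004 and 10.04 in the Hprt knockout and 10.03 and 9.97 in the trap line. The exon 2 mutant was below all other groups (-0.41 ± 0.05 against wild-type, adjusted p = 0.000675), and the arrays of both HPRT -/- lines overlapped.

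The desaturases introduce the double bond of monounsaturated fatty acids. By their brightest probe sets, they moved in opposite directions from wild-type in the HPRT -/- lines. Scd1 read 8.68 and 8.78 in wild-type, 8.55 and 8.69 in the exon 2 mutant, 8.05 and 8.09 in the Hprt knockout and 9.96 and 9.93 in the trap line. It fell by 0.66 ± 0.07 in the Hprt knockout and rose by 1.22 ± 0.07 in the trap line, each against wild-type (adjusted p = 7.76e-05 and 3.55e-05). Scd2 read 11.52 and 11.52 in wild-type, 11.64 and 11.62 in the exon 2 mutant, 10.81 and 10.80 in the Hprt knockout and 12.19 and 12.38 in the trap line. The same directions held for it, with -0.72 ± 0.07 for the Hprt knockout and 0.77 ± 0.07 for the trap line (adjusted p = 6.73e-05 and 0.000245). Between the HPRT -/- lines the differences were 1.88 ± 0.07 for Scd1 and 1.48 ± 0.07 for Scd2. Neither gene was called in the exon 2 mutant against wild-type. On the other probe sets of both genes, the falls in the Hprt knockout against wild-type were smaller. Feeder signal moved with these genes: the 17 feeder markers were higher in the trap line by a median of 4.07, and the part of feeder cells in the Scd1 and Scd2 differences was not tested.

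Elovl6, the elongase gene for long-chain saturated fatty acids, read 9.62 and 9.76 in wild-type, 10.71 and 10.85 in the exon 2 mutant, 11.03 and 11.09 in the Hprt knockout and 10.75 and 10.81 in the trap line. Wild-type was below all 6 other arrays, and the exon 2 mutant and trap line arrays overlapped. It rose 2.13-fold in the exon 2 mutant, 2.57-fold in the Hprt knockout and 2.12-fold in the trap line, each against wild-type (adjusted p = 4.45e-05, 3.62e-06 and 7.65e-05). Its difference between the trap line and the Hprt knockout (-0.28 ± 0.07, adjusted p = 0.0115) was lost with the mean of probe sets, after cyclic loess, and without Hprt knockout replicate 2 or trap line replicate 1.

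The 29 genes were covered by 67 probe sets, 20 genes having several and 9 having 1. Over the probe sets of the 20 genes beyond the brightest, a call opposite to that of the brightest occurred for Cyp51 in the exon 2 mutant against the Hprt knockout (0.34 against -0.20) and for Stard4 in the exon 2 mutant against wild-type (-0.30 against 0.31). The other 3 probe sets of Hsd17b7 gave 1.46, 1.30 and -0.13 between the trap line and the Hprt knockout, each below the 2.10 of the brightest, and the last was not called (adjusted p = 0.455 over all probe sets). The same 3 gave -1.14, -0.49 and 0.00 in the Hprt knockout against wild-type, where the brightest gave -1.42. The second probe set of Sc5d rose by 2.36 in the trap line over the Hprt knockout, where the brightest rose by 1.08. The second of Scd1 gave 0.32 in the trap line over wild-type (adjusted p = 0.132 over all probe sets), below the 1.22 of the brightest, and the other 2 of Scd2 gave 1.14 and 1.33. For Elovl6 the second probe set rose by 1.01, 1.17 and 1.06 in the exon 2 mutant, the Hprt knockout and the trap line against wild-type, and the third was called in none of these comparisons. The brightest probe sets of Hsd17b7, Fdft1 and Acly are of the type that can cross-hybridise and those of Mvd and Lss match several transcripts, so their reads may include related transcripts.

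Neighbouring pathways were read from lists of genes outside the 29. The background for their counts in the trap line against wild-type was again 26.5% of all tested genes higher and 14.6% lower. Of 10 tested genes that use farnesyl diphosphate for other products (prenyl transfer, dolichol and coenzyme Q), 4 rose and 0 fell in the trap line against wild-type, by at most 0.25 (Nus1, of dolichol synthesis). Of 10 genes of sterol traffic and efflux, 4 rose and 0 fell, among them the efflux transporters Abcg1 (1.14 ± 0.06, adjusted p = 4.03e-05) and Abca1 (0.42 ± 0.06, adjusted p = 0.0015). Of 24 genes of fatty acid supply, elongation and desaturation, 11 rose and 2 fell, with the elongase Elovl7 (1.30 ± 0.14, adjusted p = 0.000534) and the carboxylase Acacb (0.54 ± 0.07, adjusted p = 0.00151) among the risen and Hacd1, a dehydratase of the elongation cycle, among the fallen (-0.59 ± 0.06, adjusted p = 0.000328). Of 10 genes of fatty acid oxidation, 2 rose and 0 fell, Cpt2 (0.47 ± 0.07) and Acadvl (0.29 ± 0.07), both of mitochondrial breakdown. Of 8 genes of SREBP processing and sterol sensing, Mylip, encoding a sterol-induced ubiquitin ligase, rose (0.44 ± 0.06) and Tmem97, a sterol-responsive membrane protein gene, fell (-0.28 ± 0.07). The medians of these lists in that comparison were 0.03, 0.12, 0.16, 0.11 and 0.01, against 0.68 for the sterol enzymes and 0.53 for the fatty acid enzymes.

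In the Hprt knockout against wild-type, Ch25h, encoding a cholesterol hydroxylase, fell by 5.17 ± 0.10 and Lipa, encoding lysosomal acid lipase, fell by 1.84 ± 0.06, while Elovl2, an elongase of polyunsaturated fatty acids, rose by 2.32 ± 0.15 and Acacb by 1.94 ± 0.07. Of the 10 genes of the traffic list 3 rose and 6 fell, and of the 24 of the supply list 13 rose and 6 fell, with 46.4% of all tested genes called higher and 25.1% lower. In the trap line against the Hprt knockout, Ch25h rose by 4.98 ± 0.10 and Lipa by 2.02 ± 0.06, and Elovl2 fell by 2.16 ± 0.15. Ch25h and Lipa were thus low where the feeder signal was low, and the part of feeder cells in them was not tested. In the exon 2 mutant against wild-type, the supply list rose in 13 and fell in 7 of 24 genes, where 32.5% of all tested genes were higher and 23.1% lower. Acacb led the list (1.10 ± 0.07, adjusted p = 4.65e-05). In the same comparison, 2 of the 10 genes of the traffic list rose and 3 fell (median -0.14). Of the 8 genes of SREBP processing and sterol sensing, 1 rose and 2 fell (median -0.08). The HDL receptor gene Scarb1 (0.94 ± 0.06) and Abcg1 (0.90 ± 0.06) rose, the protease gene Mbtps2, which releases SREBPs, rose by 0.64 ± 0.05, and Ch25h fell by 1.08 ± 0.10. Of the 10 genes that use farnesyl diphosphate for other products, 3 rose and 3 fell (median 0.08). Among the risen, the prenyltransferase subunit gene Fntb rose by 0.81 ± 0.06 and the coenzyme Q gene Pdss2 by 0.56 ± 0.07.

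Markers of other cell types were read beside these genes. Of 8 fat cell markers, 7 were on the array and 3 tested, and Pparg, Adipoq, Cd36 and Cidec stayed below the filter level. The summed linear intensity of the 7 was 1184.5 to 1234.5 in wild-type, 1119 to 1132 in the exon 2 mutant, 991 to 1035 in the trap line and 691 to 713 in the Hprt knockout. Of 6 macrophage markers, Ptprc and Tyrobp stayed below the filter level, and the sum of the 6 was 402 to 645 over the 8 arrays. The sum of the 7 primitive endoderm markers was 1616 to 1742 in wild-type, 1396 to 1434 in the exon 2 mutant, 1282 to 1357 in the Hprt knockout and 2221 to 2284 in the trap line, highest in the trap line, where 21 of the 29 synthesis genes were highest too, and its part in their values was not tested. The sum of 12 stem cell markers was 59627 to 60079 in wild-type, 70141 to 73105 in the exon 2 mutant, 71400 to 72743 in the trap line and 78916 to 80517 in the Hprt knockout.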

How the data were processed

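Total RNA of 8 mouse ES cell samples was hybridised to Affymetrix arrays, and the authors deposited log2 intensities per probe set made with RMA, per the submitters' processing notes, which name no version. Array medians were 5.96 to 6.01. Precision is limited by the 2 arrays per group, and an exact permutation test of 2 against 2 cannot go below p = 0.333. Probe sets with 1 symbol in the platform annotation (34945; 932 had several and 9160 none) were used, 34741 of them matched by Entrez identifier, and no symbol changed. Each gene was read from its brightest probe set, and genes above the array's 40th percentile (5.35 on average) on at least 2 arrays were tested. Group means were fitted with limma 3.58.1 in R 4.3.3 (lmFit and eBayes over all 8 arrays, checked on simulated data), with Benjamini-Hochberg adjustment over 13819 genes and a threshold of 0.05. The difference of effects was a contrast in the same fit. Alternatives were the mean of probe sets, cyclic loess, filters, an intensity trend, the compared arrays alone, a replicate block and single arrays left out.

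The members and the gene lists were chosen with earlier results of these data known. By rule, array values were given for the 6 control genes, the 6 fatty acid genes, Hmgcs1, Sqle, Idi1, Ebp and Dhcr7, and up to 4 other sterol genes with the largest called, non-overlapping differences in each of 4 comparisons; pathway lists were given by counts and up to 3 genes per comparison, and promoters by motif or size of difference. The pathway lists were isoprenoid side branches, SREBP processing, sterol traffic, fatty acid supply and fatty acid oxidation, and the marker lists feeder fibroblast, stem cell, fat cell, primitive endoderm and macrophage.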

Additional observations from a re-analysis of the deposited data

Results flagged for a closer look

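For 10 genes the difference between a Gtf2i mutant line and its own control was not the same in both lines, by the contrast exon 2 mutant minus wild-type minus the difference between trap line and Hprt knockout (limma, log2 scale), and both differences were called with opposite signs. Negative values, lower in the exon 2 mutant and higher in the trap line, were -2.65 for Hsd17b7, -1.56 for Sc5d, -1.44 for Msmo1, -1.21 for Hmgcs1, -0.56 for Scap and -0.53 for Idi1. Positive values, higher in the exon 2 mutant and lower in the trap line, were 1.37 for Elovl6, 1.15 for Dhcr7, 1.12 for Pmvk and 0.56 for Srebf2. Against their own controls, 14.5% of all tested genes were called lower in the exon 2 mutant and higher in the trap line. The reverse held for 22.9%. Opposite calls were thus common over all tested genes and not particular to these members. At least 1 of the 2 calls was lost in at least 1 alternative for Idi1, Elovl6, Srebf2 and Scap (trap line against Hprt knockout) and for Pmvk, Srebf2 and Scap (exon 2 mutant against wild-type), and the contrast itself was no longer called for Scap with the mean of probe sets. The feeder fibroblast markers had a median of -4.79 in this contrast, and their part in these values was not tested.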

How the results depend on the processing

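Of 203 differences of members over 7 contrasts, 147 were called, and 34 of these lost the call in at least 1 alternative; 23 were called under no setting and are not followed further. Cyclic loess gave 12 members lower in the exon 2 mutant against wild-type (7 in the reported fit), 3 lower in the trap line against the Hprt knockout (5), and 10 higher and 10 lower in the Hprt knockout against wild-type (16 and 5). The mean of probe sets gave 3 lower in the trap line against the Hprt knockout. The other counts stayed within 1.5 times the reported ones. With single arrays left out, members called higher and lower were 4 to 6 and 7 to 8 in the exon 2 mutant against wild-type, 13 to 17 and 4 to 5 in the trap line against the Hprt knockout, 16 and 5 in the Hprt knockout against wild-type, and 23 to 28 and 0 in the trap line against wild-type. Between the exon 2 mutant and the trap line they were 0 and 18 to 22, between the exon 2 mutant and the Hprt knockout 4 to 5 and 14 to 16, and for the difference of effects 6 and 15 to 17.

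Signs turned in the following differences. In the exon 2 mutant against wild-type, Mvd gave 0.14 to -0.22 without exon 2 mutant replicate 1 or 2, Lss -0.02 after cyclic loess and Cyp51 0.05 with the mean of probe sets. In the Hprt knockout against wild-type, cyclic loess gave -0.09 for Hmgcs1, -0.21 for Cyp51 and -0.25 for Nsdhl. There, leaving out single arrays gave -0.01 for Cyp51, -0.03 to 0.04 for Nsdhl (-0.02 without wild-type replicate 1), 0.01 and 0.00 for Insig1 and -0.14 to 0.10 for Insig2 (0.06 without wild-type replicate 2). In the exon 2 mutant against the Hprt knockout, Sc5d gave 0.18 with the mean of probe sets and 0.03 after cyclic loess, and Stard4 gave 0.10 after cyclic loess and -0.08 to 0.01 without exon 2 mutant replicate 1 or 2. The difference of effects of Acly was -0.05 after cyclic loess. The cause was not tested.

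The replicate numbers of the titles do not pair the arrays: deviations of same-numbered arrays correlated at -0.28 to 0.17. With the replicate block, counts of members called higher and lower were 6 and 7 (exon 2 mutant against wild-type), 16 and 5 (trap line against Hprt knockout), 16 and 5 (Hprt knockout against wild-type), 27 and 0 (trap line against wild-type) and 0 and 21 (exon 2 mutant against trap line, 23 without the block). The fit of the compared arrays alone is not possible for the difference of effects. All members lay above the level of the filter on dim genes (at most 5.39), the lowest value being 6.73 (Tm7sf2 in wild-type).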
